A study of Homo sapiens with 16 samples.

Results

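RNA of HCT116 cells, a line established from a human colon cancer, was compared between 2 groups of libraries. Cells of the first group received BIX 01294, a small molecule that inhibits the histone methyltransferase G9a, at 0.5 µM for 72 h. The second group holds the controls of a G9a siRNA experiment, in which the treated cells received 10 nM siRNA by lipid transfection for 72 h. The groups were defined by their labels, but their comparison was chosen with earlier results of these data known. The 2 groups hold 8 of the 16 sequencing samples of the series, as 2 libraries a group with 2 sequencing runs each. The labels do not say what the control cells received, so an effect of the inhibitor and an effect of how the siRNA controls were handled cannot be told apart. The remaining 8 samples are 2 libraries of the siRNA and 2 of the inhibitor's own controls, which enter the same fit and are quoted where they touch a result. Nothing in the labels ties the 2 libraries of a group to different cultures, so the spread behind each p-value may be technical.

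G9a, encoded by EHMT2, and its partner GLP, encoded by EHMT1, place methyl groups on lysine 9 of histone H3 in euchromatin. The mark is read by HP1 proteins (CBX1, CBX3 and CBX5), removed by KDM enzymes, and is known for keeping genes silent, among them germline genes. BIX 01294 competes for the histone binding site of both enzymes and does not target their transcripts, so EHMT2 RNA is no measure of its action.

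Expression was measured from stranded total RNA as FPKM, a fragment count set per kilobase of transcript and per 1000000 fragments mapped. Implied depth, in units of 1000000 fragments, was 3.109, 3.323, 5.486 and 5.838 for the 4 inhibitor runs and 2.023 to 6.937 for the siRNA control runs, with siRNA control replicate 2 the shallowest of all libraries. Low genes are least precise there. Across genes, log2 values correlated at r = 0.995 between the inhibitor libraries, at 0.9917 between the siRNA controls and at 0.9877 to 0.9942 between the groups. The inhibitor's own controls stood apart from the other 6 libraries, at 0.9565 to 0.9735. Against them 36.5% of genes passed the test. Epithelial markers were present, with 10 of 12 at 1 FPKM or more in some library. Their summed level was 730.4 and 746.9 FPKM with the inhibitor and 668.0 and 665.2 in the siRNA controls. Fibroblast markers summed to 3.76 and 3.65 against 3.43 and 3.93 FPKM, with FAP, LUM and TWIST2 at 0. Markers of blood and endothelium summed to 1.32 and 1.33 against 1.35 and 1.34 FPKM.

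Few transcripts separated the groups beyond the spread between libraries. Of 12840 genes tested, 5 passed (limma, Benjamini-Hochberg adjusted p under 0.05), which is 0.0389% of them, 4 higher (0.0312%) and 1 lower (0.00779%) with the inhibitor. "Rose" and "fell" below refer to these. At an unadjusted p under 0.05, 12.4% of genes differed (5.6% higher and 6.84% lower), and with 2 libraries a side 45.9% showed no overlap between the groups. The log2 difference had a median of -0.006 and an SD of 0.191 over all genes, and 32 genes (0.249%) differed by a log2 of at least 1. Log2 differences are on the log2(FPKM + 1) scale, which understates changes of low genes, and levels are scaled FPKM.

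**Figure D1:**
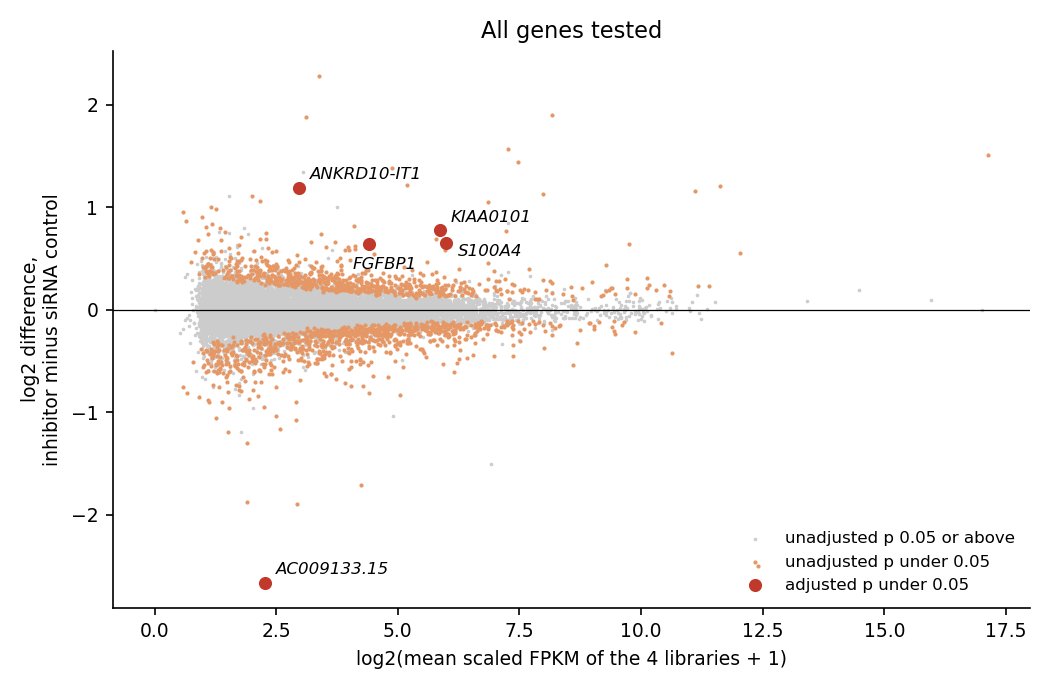
Each point is 1 of the 12840 genes tested, with the log2 of the mean level in the 4 libraries on the x axis and the log2 difference (inhibitor minus siRNA control) on the y axis. The 5 genes with an adjusted p under 0.05 are named. KIAA0101, S100A4 and FGFBP1 lie above most genes of similar level.

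KIAA0101 encodes PAF15, a small protein that binds the replication clamp PCNA. Its level was 70.8 and 73.9 FPKM with the inhibitor and 44.0 and 39.6 in the siRNA controls. Both inhibitor libraries lay above both controls. The gene (chromosome 15, 64657193 to 64679886 in hg19) rose by a log2 of 0.78 ± 0.07 (SE, n = 2; limma adjusted p = 0.00957). The siRNA libraries were also high, at 69.1 and 61.4 FPKM, and the inhibitor's own controls stood at 59.3 and 59.3. Its locus overlaps that of CTD-2116N17.1, which was at a log2 of -0.09. PCNA, its binding partner, was at 195.0 and 202.8 against 182.0 and 171.4 FPKM (log2 0.17, limma adjusted p = 0.297).

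S100A4 encodes a calcium-binding protein known for its part in cell motility and metastasis. It measured 74.7 and 77.8 FPKM with the inhibitor and 47.2 and 49.2 in the siRNA controls. The siRNA libraries, at 50.5 and 46.9, lay with the controls and not with the inhibitor. Its own inhibitor controls were at 56.3 and 52.8, also below both inhibitor libraries. S100A4 (chromosome 1, 153516089 to 153522612) rose by 0.65 ± 0.06 (SE, n = 2; limma adjusted p = 0.00957). Against the siRNA libraries the difference was 0.64 (limma adjusted p = 0.00395). The S100A3 locus lies inside that of S100A4 on the same strand, so strand alone cannot separate their fragments. How fragments were split between the pair is not stated in any source used here.

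FGFBP1 encodes a secreted protein that releases fibroblast growth factors from the matrix. Levels were 24.4 and 25.7 FPKM against 15.0 and 16.4, with no overlap. The gene (chromosome 4, 15937192 to 15940363) rose by 0.64 ± 0.07 (SE, n = 2; limma adjusted p = 0.0274). With the siRNA it stood at 26.9 and 24.8 FPKM, close to the inhibitor libraries.

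ANKRD10-IT1, a transcript annotated inside an intron of ANKRD10, stood at 10.6 and 9.15 FPKM against 4.22 and 3.33. It (chromosome 13, 111547406 to 111551519) rose by 1.19 ± 0.12 (SE, n = 2; limma adjusted p = 0.0147), and is uncertain because it overlaps its host. ANKRD10 itself was at 68.0 and 66.9 against 62.4 and 59.4 FPKM (log2 0.14, limma adjusted p = 0.324). The siRNA libraries were at 9.66 and 11.4 FPKM of ANKRD10-IT1. The inhibitor's own controls stood at 7.39 and 7.10 FPKM, above the siRNA controls, and the difference from them was 0.40 (limma adjusted p = 0.0327).

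The 1 gene that fell was AC009133.15, a transcript annotated antisense within MAZ (chromosome 16, 29817817 to 29819053). It measured 0.689 and 0.00241 FPKM against 5.88 and 8.82 (log2 -2.66 ± 0.25, SE, n = 2; limma adjusted p = 0.00957). Its runs disagreed within a library: inhibitor replicate 1 gave 1.42 FPKM in the first run and practically 0 in the second. The siRNA libraries and the inhibitor's own controls were all practically 0. The transcript passed the filter on low values only through the siRNA controls, the group where it is high. Libraries at practically 0 also add little spread to the shared fit, so its SE and adjusted p are weak support. MAZ was at a log2 of -0.03.

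The 4 calls of higher genes rest on 3 of the 4 libraries. They ended without inhibitor replicate 1 (adjusted p 0.0641 to 0.148), without inhibitor replicate 2 (0.13 to 0.252) and without siRNA control replicate 2 (0.0833 to 0.0893), with log2 differences of 0.61 to 1.28. The call of AC009133.15 ended without inhibitor replicate 2 (0.13), and without siRNA control replicate 2 it did not pass the filter on low values.

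**Figure D2:**
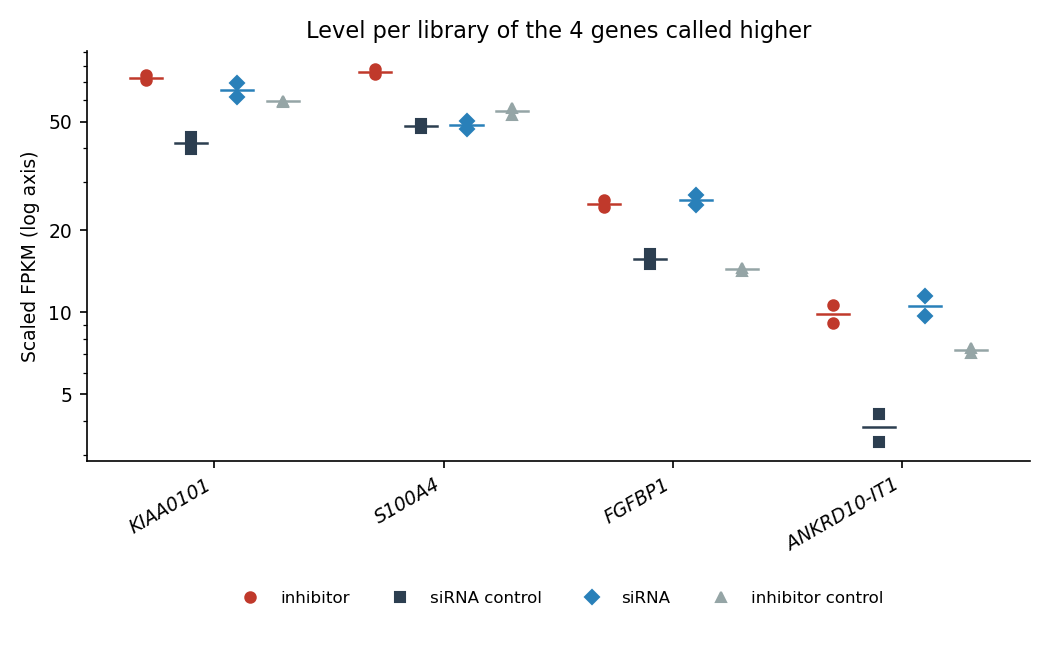
Scaled FPKM (log axis) of KIAA0101, S100A4, FGFBP1 and ANKRD10-IT1 in each library, with 2 points a group and a line at their mean. S100A4 is highest in the inhibitor libraries, whereas the other 3 genes are at similar levels with the inhibitor and the siRNA.

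Most S100 genes lie in a cluster on chromosome 1, and most of their small proteins change shape when they bind calcium. The series was not designed around them, and they are described here because S100A4 was called, with the family chosen after its values were seen. Of 19 family members in the files 9 passed the filter on low values. The promoters of 4 members are shown, credited to RefSeq (GRCh38.p14, minus strand, 250 bases before to 50 after the start). Capitals mark TGANTCA, the AP-1 site, searched on both strands.

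S100A4 (chr1:153545757-153546056): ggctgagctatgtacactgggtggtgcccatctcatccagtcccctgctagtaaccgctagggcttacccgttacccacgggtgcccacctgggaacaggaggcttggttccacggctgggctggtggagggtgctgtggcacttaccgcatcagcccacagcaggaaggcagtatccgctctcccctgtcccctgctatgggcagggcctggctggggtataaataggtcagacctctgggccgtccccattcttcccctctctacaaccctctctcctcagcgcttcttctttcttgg
S100A6 (chr1:153535942-153536241): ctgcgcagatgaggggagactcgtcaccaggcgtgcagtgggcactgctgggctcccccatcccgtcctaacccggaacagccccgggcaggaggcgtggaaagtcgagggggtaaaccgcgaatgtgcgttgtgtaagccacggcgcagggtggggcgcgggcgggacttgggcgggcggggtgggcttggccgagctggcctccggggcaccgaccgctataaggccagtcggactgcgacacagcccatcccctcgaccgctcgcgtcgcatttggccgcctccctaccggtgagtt
S100A2 (chr1:153565795-153566094): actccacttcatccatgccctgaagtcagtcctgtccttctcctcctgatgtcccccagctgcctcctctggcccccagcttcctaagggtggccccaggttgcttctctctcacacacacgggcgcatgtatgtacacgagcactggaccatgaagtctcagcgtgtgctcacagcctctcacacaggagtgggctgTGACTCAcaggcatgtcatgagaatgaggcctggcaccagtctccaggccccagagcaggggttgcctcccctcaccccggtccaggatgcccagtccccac
S100A3 (chr1:153549209-153549508): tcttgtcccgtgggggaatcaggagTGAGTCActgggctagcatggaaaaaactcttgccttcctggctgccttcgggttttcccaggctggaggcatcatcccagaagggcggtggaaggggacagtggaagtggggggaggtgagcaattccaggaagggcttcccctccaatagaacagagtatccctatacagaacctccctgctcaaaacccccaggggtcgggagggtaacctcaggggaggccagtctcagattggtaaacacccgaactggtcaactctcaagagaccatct

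The letters were found in 2 of the 9 promoters, S100A2 (first base at -52) and S100A3 (-225), and in 7.76% of all promoters of this length. They were not in the windows of S100A4 and S100A6. A match describes the letters and shows no binding.

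S100A6, which encodes calcyclin, was the most abundant member, at 701.9 and 734.5 FPKM with the inhibitor against 550.5 and 508.9. The difference of 0.44 ± 0.06 just missed the threshold (limma adjusted p = 0.0596). S100A6 passed under quantile normalization (limma adjusted p = 0.0419), with a mean of at least 5 FPKM (0.0247) and with robust fitting (0.0443). It did not pass with no filter on low values (0.374), with no mean-variance trend (0.314) or with FPKM as deposited (0.111). S100A10, the annexin A2 partner, measured 59.6 and 62.7 against 45.6 and 48.2 FPKM (log2 0.37, limma adjusted p = 0.0825). Its adjusted p was 0.0496 with a mean of at least 5 FPKM and 0.374 with no filter on low values (limma). S100A2 measured 18.6 and 17.9 against 11.1 and 12.7 FPKM (log2 0.58, limma adjusted p = 0.145; 0.047 with FPKM as deposited). In each of these both inhibitor libraries lay above both controls. S100A13, S100A11, S100A3 and S100A16 were at a log2 of 0.32, 0.21, 0.43 and 0.28, also without overlap. S100A14 was the exception, at 3.27 and 4.07 against 3.26 and 3.32 FPKM (log2 0.12; -0.01 without inhibitor replicate 2). S100A16 was at 0.18 without that library, and S100A3 at 0.12 in the first run alone. So 8 of the 9 were higher without overlap, beside 21.5% of all genes, and S100A4 alone passed the test in the analysis reported. Without siRNA control replicate 2 the family's median was 0.38, and without siRNA control replicate 1 it was 0.37.

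The siRNA libraries divided the family. S100A11 rose in them by 0.34 against the same controls (limma adjusted p = 0.0278), and S100A6 was at 0.29 (0.0533), whereas S100A4, S100A3 and S100A10 were at 0.01, -0.01 and -0.11. The direct difference between inhibitor and siRNA passed for S100A4 and for S100A10 (log2 0.48, limma adjusted p = 0.0162). S100A10 also differed from the inhibitor's own controls, where it stood at 117.5 and 118.3 FPKM, above the inhibitor libraries. S100A11 was likewise lower than in those controls (log2 -0.24, limma adjusted p = 0.00829).

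**Figure D3:**
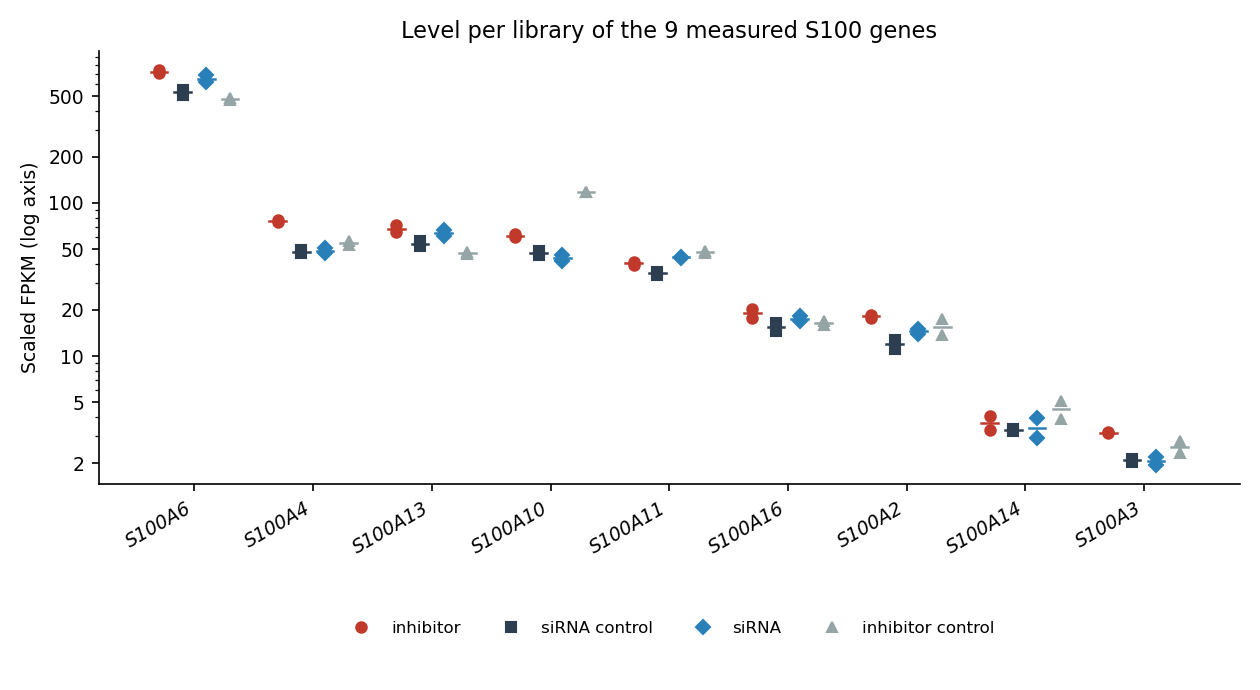
Scaled FPKM (log axis) of the 9 measured S100 genes in each library, with 2 points a group and a line at the mean. Inhibitor points lie above the siRNA control points for every gene but S100A14, and the inhibitor controls are far higher for S100A10.

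EHMT2 (chromosome 6, 31847536 to 31865464) stood at 19.7 and 18.9 FPKM with the inhibitor and 15.9 and 17.8 in the siRNA controls. The libraries did not overlap, but the difference of 0.19 (95% interval -0.02 to 0.40) did not pass (limma adjusted p = 0.44). Leaving out the first siRNA control library gave 0.11, and leaving out the second gave 0.26. The siRNA libraries, at 4.68 and 4.54 FPKM, were low as labelled. EHMT1 measured 10.9 and 12.4 against 12.2 and 15.8 FPKM, which overlap (log2 -0.24, interval -0.51 to 0.03, limma adjusted p = 0.446). Without 1 library it ran from -0.41 (siRNA control replicate 1 left out) to -0.07 (siRNA control replicate 2 left out), with -0.15 without inhibitor replicate 1. Against the inhibitor's own controls, at 25.5 and 24.0 FPKM, EHMT1 was lower by a log2 of -1.03 (limma adjusted p = 0.000352). Among 12 H3K9 methyltransferases and G9a partners 0 differed at an unadjusted p under 0.05. SETDB1 was at 19.2 and 19.5 against 19.4 and 20.9 FPKM, and SUV39H1 at a log2 of -0.13.

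Of the 12 readers of the mark, 1 differed at an unadjusted p under 0.05. CBX1, which encodes HP1 beta, was at 61.3 and 60.4 against 52.5 and 49.1 FPKM (log2 0.26 ± 0.05, limma adjusted p = 0.15). CBX3 (HP1 gamma) was at 0.11 and CBX5 (HP1 alpha) at -0.08. Among 8 demethylases measured and 10 genes of DNA methylation 0 differed at that level. UHRF1, which recruits the maintenance DNA methyltransferase, was at 20.8 and 20.01 against 20.8 and 22.2 FPKM (log2 -0.07; 0.05 with FPKM as deposited).

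Among classes that G9a is known to keep silent, most germline genes and the protocadherins did not pass the filter on low values. Of 41 germline and cancer-testis genes 2 passed it, MAGEA12 (56.6 and 60.6 against 59.9 and 54.3 FPKM) and MAGEB2 (82.7 and 89.0 against 87.8 and 85.6), both overlapping. None of 57 clustered protocadherin genes passed the filter. Of 17 measured imprinted genes 2 were higher and 2 lower at an unadjusted p under 0.05. GNAS, a G-protein subunit gene, was at 146.3 and 146.5 against 120.0 and 120.3 FPKM (log2 0.28, limma adjusted p = 0.114). Zinc finger genes of chromosome 19, often carrying H3K9 methylation, had 1 of 112 higher and 10 lower at that level. Of all genes 5.6% were higher and 6.84% lower, so the lower count is near that share and the higher count below it. Without overlap 11 of the 112 were higher and 38 lower, beside 21.5% and 24.4% of all genes. Of all 865 genes measured on chromosome 19, 124 were higher and 263 lower without overlap. The median of the zinc finger genes was -0.06 (0.03 with FPKM as deposited). ZNF587 was at 8.36 and 8.97 against 10.9 and 11.3 FPKM (log2 -0.33, limma adjusted p = 0.241).

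None of the gene lists below had a member past the adjusted threshold. Their counts are therefore at an unadjusted p under 0.05, to be read beside the 5.6% of all genes higher and 6.84% lower. The lists describe and carry no test of their own. With FPKM as deposited, the median gene was 0.099 higher with the inhibitor, and list medians move by about as much.

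ATF4 is the transcription factor that amino acid shortage and other stresses induce, and its targets import amino acids, make serine and asparagine and charge tRNAs. Of 33 measured genes of this response 10 were lower and 2 higher, with a median of -0.11 (-0.01 with FPKM as deposited). GARS, the glycyl-tRNA synthetase, was at 38.3 and 39.0 against 50.8 and 52.1 FPKM (log2 -0.40 ± 0.06, limma adjusted p = 0.0596). ASNS, asparagine synthetase, was at 22.3 and 25.2 against 31.9 and 31.7 FPKM (log2 -0.41 ± 0.07, limma adjusted p = 0.101). Both groups of libraries stood clear of each other in each. PSAT1 of serine synthesis and MARS, the methionyl-tRNA synthetase, were at -0.25 and -0.35. ATF4 itself was at 239.1 and 241.1 against 279.2 and 276.4 FPKM (log2 -0.21, limma adjusted p = 0.201). DDIT4, an inhibitor of mTORC1, went the other way, at 14.6 and 15.7 against 11.4 and 11.2 FPKM (log2 0.39). With the siRNA ASNS was at -0.11, GARS at -0.25 and ATF4 at 0.07 against the same controls.

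The ASNS promoter (RefSeq, GRCh38.p14, minus strand) is shown since it carries a known ATF4 element. Capitals mark TGATGNAA, the C/EBP-ATF element, searched on both strands and found here at -68.

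ASNS (chr7:97872359-97872658): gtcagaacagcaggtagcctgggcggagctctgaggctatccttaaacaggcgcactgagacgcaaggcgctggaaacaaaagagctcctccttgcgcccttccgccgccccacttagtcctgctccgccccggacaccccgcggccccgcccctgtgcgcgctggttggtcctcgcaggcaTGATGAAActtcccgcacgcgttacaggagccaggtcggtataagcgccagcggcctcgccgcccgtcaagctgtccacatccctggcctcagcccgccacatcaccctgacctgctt

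The element was in 7 of the 29 list members with a promoter, against 3.67% of all promoters. Beside ASNS these were MARS, AARS, SLC7A1, CHAC1, ATF3 and SLC3A2. Of the 7, ASNS, MARS, AARS and SLC7A1 were among the 10 lower genes. The list was chosen as an ATF4 response, so a high share of the element was likely beforehand. Whether the element bears on the lower values was not tested.

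NRF2 drives antioxidant and iron-storage genes. Of 26 measured targets, ferritins and metallothioneins 4 were lower and 0 higher, with a median of -0.06 (0.05 with FPKM as deposited). FTL, the ferritin light chain, was at 1388 and 1339 against 1834 and 1811 FPKM, with no overlap. Its difference of -0.42 ± 0.05 lay at the threshold (limma adjusted p = 0.0505). NQO1, a quinone reductase, was at 147.2 and 148.2 against 176.6 and 175.1 FPKM (log2 -0.25, limma adjusted p = 0.108). HMOX1, heme oxygenase, and GCLC, of glutathione synthesis, were at -0.37 and -0.31. With the siRNA FTL was at 0.07, and the direct difference between inhibitor and siRNA was -0.49 (limma adjusted p = 0.00808). Against the inhibitor's own controls both genes were higher, FTL by 0.21 (limma adjusted p = 0.0159) and NQO1 by 0.36 (limma adjusted p = 0.000477).

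Cholesterol synthesis is driven by SREBP2, which responds to low sterol. Of 25 measured genes of synthesis and uptake 8 were higher and 0 lower, and 13 were higher without overlap (21.5% of all genes were), with a median of 0.09. IDI1, of isoprenoid synthesis, was at 108.3 and 112.0 against 97.7 and 87.1 FPKM (log2 0.25, limma adjusted p = 0.197). ACAT2, of the acetyl-CoA step, was at 79.2 and 78.4 against 69.7 and 69.1 FPKM (log2 0.18, limma adjusted p = 0.208). FDFT1, squalene synthase, was at 119.2 and 121.3 against 107.5 and 103.7 FPKM (log2 0.19, limma adjusted p = 0.232). SREBF2, which encodes SREBP2, was at 0.04, and its libraries overlapped. With the siRNA IDI1 was at 0.27, ACAT2 at 0.17 and FDFT1 at -0.05. Fatty acid synthesis had 2 of 14 higher, ACSS2 (log2 0.36) and FADS1 (0.18).

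**Figure D4:**
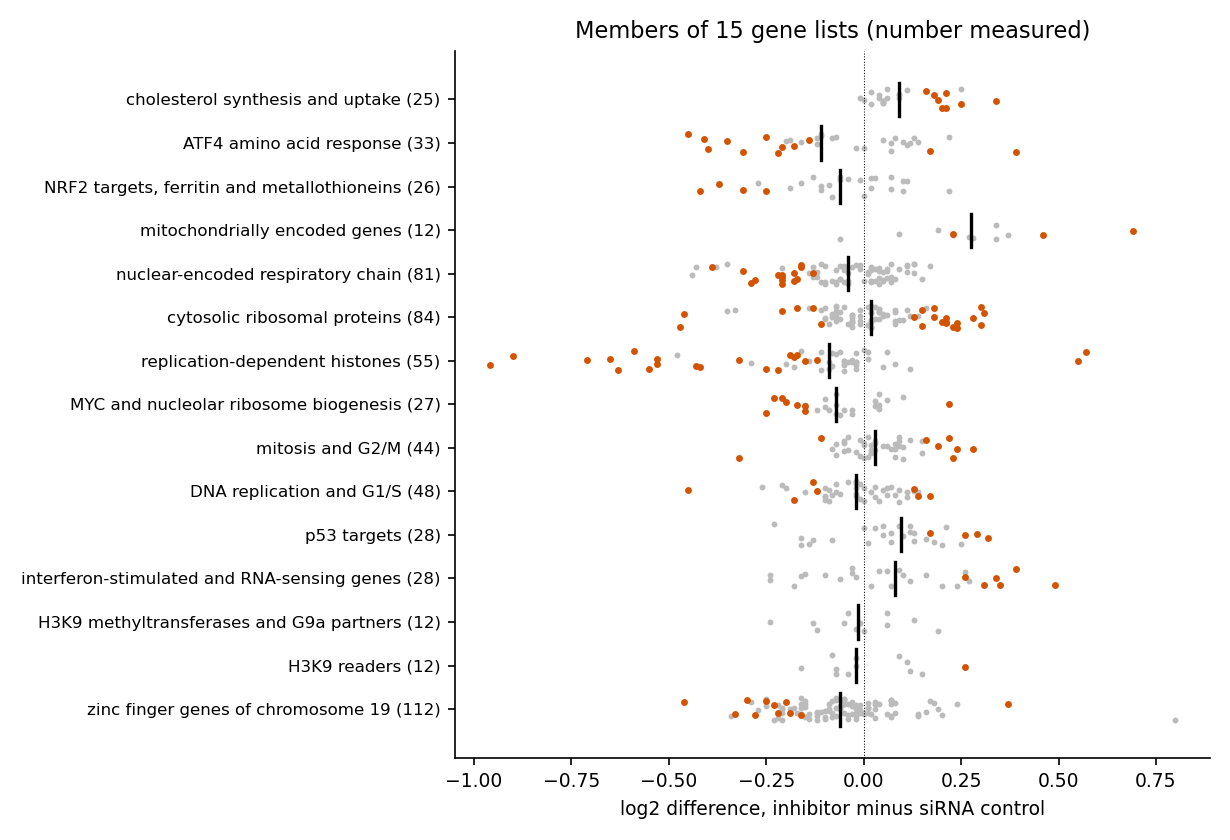
Each point is a measured member of 1 of 15 gene lists, placed by its log2 difference (inhibitor minus siRNA control), in orange where the unadjusted p was under 0.05. Black bars mark medians. The mitochondrially encoded genes lie furthest to the right, with a median of 0.28, and members of most other lists straddle 0.

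The mitochondrial genome encodes subunits of the respiratory chain and 2 ribosomal RNAs. Of its 12 measured genes 3 were higher and 0 lower, and 10 were higher without overlap, beside 21.5% of all genes (median 0.28). MT-CO3, of cytochrome oxidase, was at 2982 and 2835 against 2483 and 2482 FPKM (log2 0.23, limma adjusted p = 0.232). MT-ND3, of complex I, was at 142.2 and 124.9 against 93.2 and 100.4 FPKM (log2 0.46, limma adjusted p = 0.32). MT-CO1 was the 1 below 0, at -0.06, and overlapped. These genes are transcribed together from 1 small genome and are not independent. Against the inhibitor's own controls the same list had a median of -1.48.

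Nuclear-encoded respiratory genes went the other way, with 15 of 81 lower and 0 higher (median -0.04; 0.07 with FPKM as deposited). UQCR11, of complex III, was at 59.7 and 73.8 against 90.4 and 84.0 FPKM (log2 -0.39, limma adjusted p = 0.2). COX7B was at -0.31 and NDUFB10 at -0.21, both without overlap. Cytosolic ribosomal protein genes were mixed, with 16 of 84 higher and 6 lower (median 0.02). RPL37 was at 890.1 and 903.6 against 792.8 and 754.0 FPKM (log2 0.21), and RPS15 at 647.6 and 642.6 against 729.8 and 765.2 (log2 -0.21). Ribosomal protein genes have many processed copies, so their split is uncertain. MYC and nucleolar ribosome biogenesis genes had 7 of 27 lower and 1 higher (median -0.07; 0.05 with FPKM as deposited), among them WDR43 (log2 -0.23) and ODC1 (-0.15).

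Replication-dependent histone genes package newly made DNA. They had 19 of 55 lower and 2 higher (median -0.09; 0.03 with FPKM as deposited). HIST1H2AD was at 361.0 and 370.8 against 431.6 and 484.1 FPKM (log2 -0.32 ± 0.06, limma adjusted p = 0.114). HIST1H4K was at 42.4 and 55.3 against 66.1 and 74.9 FPKM (log2 -0.53). These genes are short and near-identical, so single members are uncertain.

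Mitotic genes had 6 of 44 higher and 2 lower, with 15 higher without overlap, beside 21.5% of all genes (median 0.03). CCNA2, cyclin A2, was at 68.6 and 70.5 against 61.8 and 55.9 FPKM (log2 0.24, limma adjusted p = 0.196). MAD2L1 of the spindle checkpoint and TOP2A were at 0.28 and 0.22. Among G1/S and replication genes 3 of 48 were higher and 4 lower. RPA1, which binds single-stranded DNA, was at 8.08 and 8.27 against 10.1 and 13.3 FPKM (log2 -0.45, limma adjusted p = 0.232).

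p53 is intact in HCT116, and its targets had 4 of 28 higher and 0 lower (median 0.10). FDXR was at 11.7 and 11.2 against 8.42 and 9.64 FPKM (log2 0.32, limma adjusted p = 0.216). CDKN1A, the p21 inhibitor of cyclin-dependent kinases, was at 4.81 and 5.05 against 3.91 and 4.02 FPKM (log2 0.26). Interferon-stimulated and RNA-sensing genes had 6 of 28 higher and 0 lower (median 0.08). STAT2 was at 11.5 and 11.4 against 8.98 and 9.11 FPKM (log2 0.31, limma adjusted p = 0.197), and IRF7 at 4.80 and 4.53 against 3.08 and 2.96 (log2 0.49). With the siRNA STAT2 was at 0.31, IRF7 at 0.55 and FDXR at 0.38, whereas IRF1 was at -0.01 (0.26 with the inhibitor). The siRNA medians were -0.02 for the interferon list and 0.04 for the p53 targets.

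Feedback genes of RAS-MAPK signalling had 5 of 21 higher and 1 lower, which was MYC (log2 -0.15), with a median of 0.003. Without overlap 9 were higher and 6 lower. DUSP6, the ERK phosphatase, was at 49.5 and 51.4 against 37.0 and 42.6 FPKM (log2 0.34 ± 0.07, limma adjusted p = 0.152). ETV5 and ETV1 were at 0.26 and 0.41. Epithelial genes had 4 of 16 higher and 0 lower. CLDN4, a tight-junction claudin, was at 12.6 and 13.3 against 8.72 and 7.55 FPKM (log2 0.61 ± 0.09, limma adjusted p = 0.0596). The keratins KRT18 and KRT8 were at 0.24 and 0.19, without overlap. The epithelial list ran from -0.165 to 0.612, with a median of 0.095. Without overlap 8 of its members were higher and 1 lower, beside 21.5% and 24.4% of all genes. Mesenchymal genes had 2 of 13 higher, ITGA5 and VIM, so both classes held higher members.

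Genes of chromosome folding held higher and lower members at the unadjusted level, and none passed the adjusted threshold. Cohesin, CTCF and condensin genes had 4 of 25 higher and 1 lower. RAD21, the cohesin kleisin, was at 143.8 and 145.1 against 134.1 and 126.3 FPKM (log2 0.15), and NIPBL, the cohesin loader, at 3.35 and 3.39 against 4.71 and 4.20 (log2 -0.32, limma adjusted p = 0.311). LMNA was at 205.2 and 203.8 against 173.4 and 182.4 FPKM (log2 0.20), and LMNB1 at -0.15. Chromosome medians ran from -0.05 (chromosome 19, 865 genes) to 0.02 (chromosome 6), apart from the mitochondrial genome. Without siRNA control replicate 2 the median of chromosome 19 was -0.02.

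The remaining lists held 2 to 6 members that differed at an unadjusted p under 0.05. Heat shock and cytosolic chaperone genes had 3 of 20 lower and 0 higher (median -0.05; 0.05 with FPKM as deposited). DNAJB1, a partner of HSP70, was at 88.3 and 91.3 against 99.5 and 100.2 FPKM (log2 -0.15, limma adjusted p = 0.26). Genes of the unfolded protein response had 2 of 26 higher and 2 lower, with SEC61G, of the ER translocon, at 0.38 and the ER factor MANF at -0.16. Autophagy and lysosome genes had 3 of 36 higher and 1 lower. The 1 lower gene was GRN, which encodes progranulin, at 19.95 and 17.2 against 22.7 and 27.2 FPKM (log2 -0.40, limma adjusted p = 0.201). NBR1, an autophagy receptor, was at 0.29. Glycolysis and hypoxia genes had 2 of 35 higher and 3 lower, among them BNIP3L (log2 0.29) and GPI (-0.19). Wnt targets had 1 of 14 higher and 2 lower, YAP-TEAD targets 1 of 14 each way and immediate early genes 1 of 21 each way. In the BCL2 family 4 of 23 were higher and 2 lower. BCL2L12 was at 9.34 and 8.09 against 12.4 and 15.8 FPKM (log2 -0.63, limma adjusted p = 0.218), and with the siRNA it fell by 1.1 on the log2 scale against the same controls (limma adjusted p = 0.0253).

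Many of the large log2 differences were in small RNAs, their hosts and uncertain transcripts, and none of those named here passed in the analysis reported. snoRNA host genes had 4 of 16 higher and 2 lower. SNORD3A, a U3 small nucleolar RNA gene that guides ribosomal RNA cleavage, was the most abundant, at 191900 and 233700 against 72950 and 75630 FPKM (log2 1.51, limma adjusted p = 0.128). Under quantile normalization it was at 0.57, and it passed with 3 groups (adjusted p 0.0156) and with FPKM as deposited (0.0231). Its near-identical copies SNORD3C, SNORD3D and SNORD3B-1 were at 1.21, 1.38 and 1.22, with SNORD3D at 0.42 in the second run alone, and these also passed with 3 groups and with FPKM as deposited. SNHG7, a snoRNA host, was at 2602 and 3485 against 1586 and 1148 FPKM (log2 1.16, limma adjusted p = 0.0596), and passed with FPKM as deposited (0.00781), with a mean of at least 5 FPKM (0.0247) and without siRNA control replicate 1 (0.0217). RNA28S5, the large ribosomal RNA of the cytosol, measured 2365 and 1045 against 7366 and 10800 FPKM (log2 -2.50, limma adjusted p = 0.26). It varied widely between libraries, at 5175 and 18930 FPKM with the siRNA and 210.2 and 40.8 in the inhibitor's own controls. What sets its level in a library was not tested. SYNJ2BP-COX16, an uncertain read-through, was at 2.56 and 2.88 against 7.13 and 7.43 FPKM (log2 -1.16, limma adjusted p = 0.126). Its runs disagreed: the inhibitor libraries were at 0.205 FPKM and practically 0 in the first run and at 5.06 and 6.18 in the second, for a log2 of -2.54 in the first run alone and -0.69 in the second. It passed with FPKM as deposited (adjusted p 0.0211) and with only the 2 groups (0.0288).

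Transcripts were also compared where one group is listed at 0. In the siRNA controls 12 genes were at 0 in every run and at 1 FPKM or more in both inhibitor libraries, all under 300 bases long. The highest, SNORD9, was at 146.9 and 177.7 FPKM. In the inhibitor libraries 8 genes were at 0, of which 7 were that short. Values of such short genes depend on fragment length, and an exact 0 may be a failed estimate.

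Inhibitor and siRNA libraries share these controls, so their differences from them are not independent and are set side by side. The direct contrast of inhibitor and siRNA libraries gave 215 genes (1.67%), 143 higher (1.11%) and 72 lower (0.561%) with the inhibitor, and the siRNA against the same controls gave 273 (2.13%). More genes thus separated the 2 treatments than separated the inhibitor from the siRNA controls. For KIAA0101, FGFBP1 and ANKRD10-IT1 the direct contrast was 0.15, -0.04 and -0.08, and did not pass. S100A4, FTL and CBX1 passed in it (log2 0.64, -0.49 and 0.37). Against the inhibitor's own controls, where 36.5% of genes passed, some genes described above passed with the opposite sign. Of these CBX1, GNAS, KRT8, NBR1, MT-CO3 and MT-ND3 were lower there (log2 -0.43, -0.40, -0.41, -0.39, -0.25 and -2.41). S100A10 and S100A11 were also lower there (log2 -0.94 and -0.24). HIST1H2AD, COX7B, ODC1, MAGEB2 and RNA28S5 were higher there (log2 0.34, 0.31, 0.23, 0.18 and 4.07). Changes in the share of a cell state and in RNA per cell cannot be told apart in these bulk values.

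**Figure D5:**
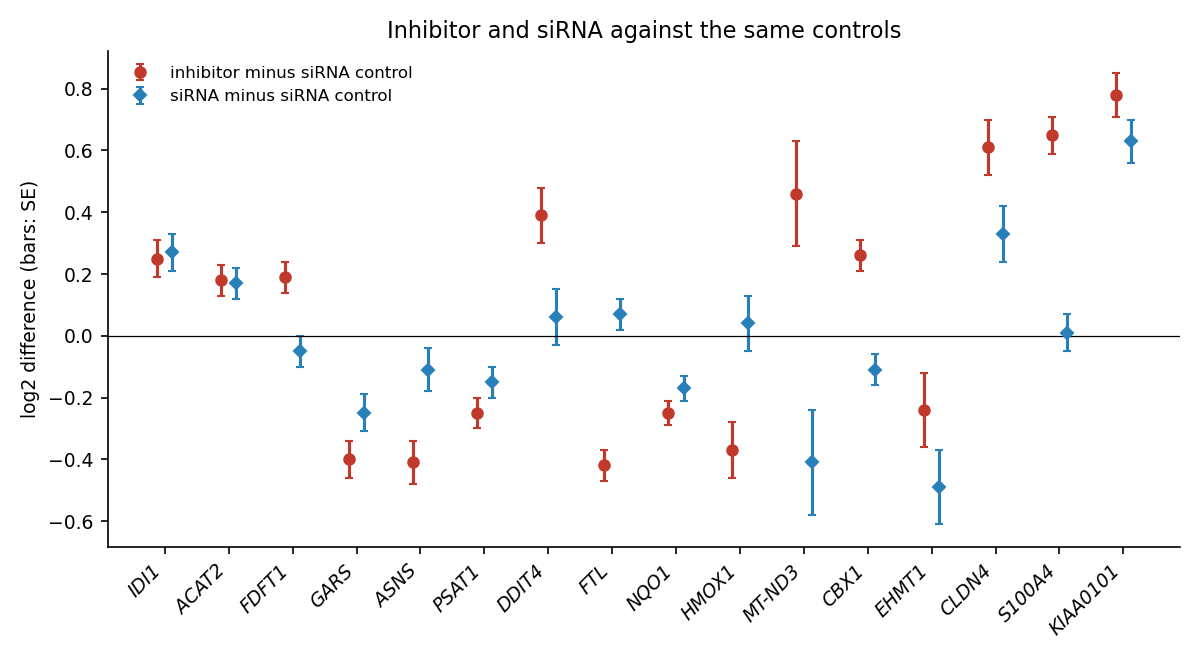
Log2 differences from the shared siRNA controls for 16 genes, in red for the inhibitor and blue for the siRNA, with standard errors (n = 2 libraries a group). KIAA0101 and IDI1 lie close in both, and S100A4, FTL, CBX1 and MT-ND3 lie apart.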

How the data were processed

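Per the labels' protocols, the kit was TruSeq for stranded total RNA and the instrument a HiSeq-2000. The authors deposited gene-level FPKM from Cufflinks, with lower and upper confidence bounds, per the file headers. The submitters' processing notes name STAR 2.3.0e, SAMtools 0.1.19 and hg19; the annotation release, the Cufflinks version and the use of strand are not stated in any source used here. Rows of 1 gene were summed and the 2 runs of a library averaged. Depth was implied from the confidence bounds. Genes with a mean of at least 1 FPKM over 8 libraries, a locus of at least 300 bases and no failure mark were kept; 420 short genes were removed. Values were scaled by median-of-ratios factors (0.878 to 1.091) and tested as log2(FPKM + 1) by limma (version 3.58.1, under R 4.3.3), all 4 groups in 1 fit with a mean-variance trend, after a check on simulated data. An exact permutation test of 2 against 2 libraries cannot go below p = 0.333. Named genes were the target and its partner, every gene passing the adjusted threshold, the 12 largest differences each way with an unadjusted p under 0.01, no overlap and at least 2 FPKM, and up to 4 members of each list with the smallest p. Genes outside this rule (PCNA, ANKRD10, MAZ, CTD-2116N17.1, SETDB1, SUV39H1, CBX5, ATF4, DDIT4, AARS, SLC7A1, SREBF2, MT-CO1, SNORD9, CHAC1, ATF3, SLC3A2 and the S100 genes other than S100A4) were chosen after values were seen. The comparison, lists and alternatives were chosen with earlier results of these data known. Files' coordinates are hg19; promoters are from RefSeq, matched by symbol (109 of 161 named genes).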

Additional observations from a re-analysis of the deposited data

Results flagged for a closer look

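For the genes below, the inhibitor and siRNA libraries differed by the direct test of that difference (limma, n = 2 a group, Benjamini-Hochberg over 12840 genes), so their differences from the shared siRNA controls were unequal. Values are the log2 of inhibitor minus siRNA.

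EHMT2, the siRNA's own target, was at 1.86 (adjusted p = 0.000104). Among the genes described above, S100A4 was at 0.64 (0.00395), FTL at -0.49 (0.00808), CBX1 at 0.37 (0.0229), MT-ND3 at 0.87 (0.0413), KRT8 at 0.31 (0.0229) and GNAS at 0.41 (0.0159). HSP90B1, an ER chaperone, was at 0.35 (0.0178), MCL1, a BCL2-family survival protein, at 0.34 (0.0289), AXL, a receptor tyrosine kinase, at 0.52 (0.0232) and the imprinted gene MEST at -0.36 (0.0229). SCARNA9, a Cajal body RNA, was at 0.56 (0.0453). The uncertain transcripts CTC-429P9.2, SYNJ2BP-COX16 and RP11-366L20.2 were at -0.96 (0.0487), -1.12 (0.0416) and -0.93 (0.0299).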

How the results depend on the processing

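Main against alternatives, the inhibitor gave 5 genes against the siRNA controls and 215 against the siRNA. FPKM as deposited gave 32 and 594, no filter on low values 0 and 11 (2610 and 3602 at an unadjusted p under 0.05), a mean of at least 5 FPKM 29 and 400, short genes kept 12 and 34, no mean-variance trend 0 and 2 (1443 and 2211), the first run alone 1 and 32, the second run alone 2 and 24, and 3 groups 11 and 122. Only the 2 groups gave 12 and robust empirical Bayes 11. Without 1 library the counts ran from 0 to 44 and from 3 to 145; the 0 came without inhibitor replicate 2 (1113 at an unadjusted p under 0.05) and the 44 without siRNA control replicate 1. The cause was not tested. Of genes at an unadjusted p under 0.05, 45% were higher, against 86.0% with FPKM as deposited, and for the direct contrast 51.9% against 96.1%. The replicate numbers do not pair the libraries (correlation of deviations -0.068), and a replicate block gave 5 and 52 genes and ended the call of FGFBP1 (adjusted p = 0.0564). All 5 calls ended with no filter (adjusted p 0.232 to 0.263) and with no trend (0.0882 to 0.15). The first run alone ended those of S100A4 (0.182), FGFBP1 (0.186), ANKRD10-IT1 (0.186) and AC009133.15 (0.284), the second run alone those of KIAA0101 (0.103), FGFBP1 (0.113) and ANKRD10-IT1 (0.103), and a pseudocount of 0.1 that of AC009133.15 (0.119). FTL was called with at least 5 FPKM (0.0247), 3 groups (0.0466) and robust fitting (0.017). Small values changed sign: PHF8 (second run alone -0.01; -0.09 to 0.31 without 1 library), JMJD1C (-0.04 to 0.16 without 1 library), UHRF1 (as deposited 0.05, first run alone 0.03), STIP1 (as deposited 0.02), IER3 (as deposited 0.01), MAGEA12 (second run alone -0.01; -0.03 to 0.11 without 1 library), MAGEB2 (as deposited 0.11, quantile 0.01; -0.07 to 0.04 without 1 library) and FBLN1 (as deposited 0.05, first run alone 0.02; -0.17 to 0.13 without 1 library).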

Other observations

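Processed pseudogenes, intronless copies of messenger RNAs, were lower with the inhibitor than in the siRNA controls, which was noticed in the data and not planned. Of 548 measured, 261 were lower and 34 higher without overlap, beside 24.4% and 21.5% of all genes, and their median log2 difference was -0.22 (-0.13 with FPKM as deposited). Protein-coding genes had a median of 0.00. The pseudogene median was -0.13 with siRNA control replicate 2 left out and -0.30 with replicate 1 of that group left out, and siRNA libraries against the same controls gave -0.16. Against the inhibitor's own controls the median had the opposite sign, at 0.24, and against the siRNA libraries it was -0.04. Reads of such copies cannot be told apart from those of their parent genes where the sequences are near-identical, and the part of this in the result was not tested.

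Several genes outside the lists lay just above the adjusted threshold in the inhibitor comparison and were chosen after their values were seen. NMT1, which attaches myristate to proteins, was at 55.4 and 55.4 against 77.3 and 93.2 FPKM (log2 -0.61, limma adjusted p = 0.0505). GPRC5A, an orphan receptor of epithelial cells, was at 17.3 and 16.7 against 11.8 and 10.3 FPKM (log2 0.58, limma adjusted p = 0.0569). The adhesion molecule ALCAM and the tetraspanin CD9 were at 0.49 and 0.40 (limma adjusted p = 0.0596 for each). All 4 showed no overlap between the groups, as did 45.9% of all genes, and their choice by a small p makes this likely.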
